A study of Rattus norvegicus with 13 samples.

Results

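TRAF proteins (tumour necrosis factor receptor-associated factors) are adaptors that bind the cytoplasmic tails of TNF-family receptors and pass the signal on to NF-kappaB and stress kinases. The members described here share a C-terminal TRAF domain that holds the receptor, and all but Traf1 carry an N-terminal RING domain. Traf1 is itself a well-known NF-kappaB target gene and acts largely through complexes with Traf2 and the inhibitors of apoptosis Birc2 and Birc3. The members were every probe whose annotated symbol starts with Traf: Traf1 (probe 89), Traf2 (probe 90), Traf4 (probe 92), Traf5 (probe 93) and Traf6 (probe 94), 5 of the 96 gene probes on the array.

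Total RNA of septal coronary arteries from F344 rats, an inbred strain, was measured on 13 arrays of apoptosis genes, 6 from rats aged 26 months and 7 from rats aged 3 months. The labels mention no treatment or altered gene. They add that the older vessels had more endothelial apoptosis by TUNEL, which marks broken DNA ends, and by a DNA fragmentation assay. Whether each array came from its own animal is not stated, so p-values measure the spread between arrays, which may be partly technical. Values are linear ratios in which the beta-actin signal of an array is its denominator. Different probes can bind their transcripts with different strength, so no statement is made on which transcript was the more abundant, and levels and balances are compared between ages.

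The arrays differed in how many gene probes had a value, from 54.2% to 83.3%. Their common level, taken as the mean log2 ratio of the 14 probes other than Traf1 that were measured on all 13 arrays, ran from -0.60 to 0.20 at 26 months and from -2.51 to 0.20 at 3 months. Young replicates 1 and 2 were the lowest, at -2.51 and -1.77. Of 48 markers of endothelium, smooth muscle, cardiomyocytes, fibroblasts and leukocytes, 2 were among the named probes, Cd40 and Cd27. The labelled tissue could therefore not be checked. Cd40 had a value on 5 of 6 arrays at 26 months and 5 of 7 at 3 months, and Cd27 on 5 of 6 and 3 of 7. The part of cell makeup in the results was not tested, and in whole vessels fewer cells of a type and less RNA per cell cannot be told apart.

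None of the 5 TRAF probes differed between the ages past the threshold (adjusted p under 0.05 by limma over 70 probes). The same fit called 1.43% of all probes, namely Tnf. At an unadjusted p under 0.05 there were 0 of 5 TRAF probes by limma and 1, Traf1, by an exact permutation test, against 5.71% of all probes by limma and 8.57% by the exact test. By the sign of the difference 2 TRAF probes were higher and 3 lower at 26 months, with a median log2 difference of -0.10, against 40 higher and 30 lower and a median of 0.06 over all 70. The differences ran from -0.51 for Traf5 to 0.95 for Traf1. Centring on the 14 probes, which include Traf4, left 1 TRAF probe higher and 4 lower, beside 14 higher and 56 lower of all 70. Median centring and quantile normalization each left 3 TRAF probes higher and 2 lower, beside 44 and 26, and 34 and 36, of all 70. The age groups overlapped for each of the 5, while they did not for 2.86% of all probes.

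Traf1 had a value on every array. Its ratios at 26 months were 0.30, 0.36, 0.68, 0.59, 0.66 and 0.90 in replicates 1 to 6. At 3 months they were 0.19, 0.33, 0.15, 0.20, 0.48, 0.31 and 0.50 in replicates 1 to 7. The groups overlapped: aged replicates 1 and 2 lay within the young range, and the other 4 aged arrays lay above every young array. The mean was 0.582 ± 0.222 at 26 months and 0.309 ± 0.140 at 3 months (SD, n = 6 and 7).

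The log2 difference of Traf1 was 0.95 (95% interval -0.02 to 1.92), a ratio 1.93 times as high at 26 months. It passed the adjustment over all probes neither by limma (unadjusted p = 0.055, adjusted p = 0.64) nor by the exact two-sided permutation test (p = 0.027, adjusted p = 0.41). Among the 70 probes Traf1 had rank 7 from the most positive difference down, and rank 12 by size regardless of sign. The difference depended on the scaling. Centring each array on Actb, Gapdh and Rpl13a gave 0.71, and quantile normalization gave 0.33 (adjusted p = 0.70 and 0.90 by limma). Median centring gave 0.97 (95% interval 0.13 to 1.80, adjusted p = 0.41 by limma).

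The common level of the 14 probes, like Traf1, was higher on average at 26 months. It is not the level of the whole array: the median log2 difference of all 70 probes was 0.06. The 14 other probes averaged -0.21 ± 0.34 on the log2 scale at 26 months and -1.00 ± 0.89 at 3 months (SD, n = 6 and 7). With each array centred on them, Traf1 stood at -0.67 ± 0.35 and -0.83 ± 0.76, a difference of 0.16 (95% interval -0.70 to 1.01, adjusted p = 0.87 by limma). Young replicates 1 and 2, with their low level, then held the highest Traf1 values of all arrays, 0.11 and 0.17. Without these 2 arrays the uncentred Traf1 difference was 0.88 (adjusted p = 0.59 by limma).

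**Figure D1:**
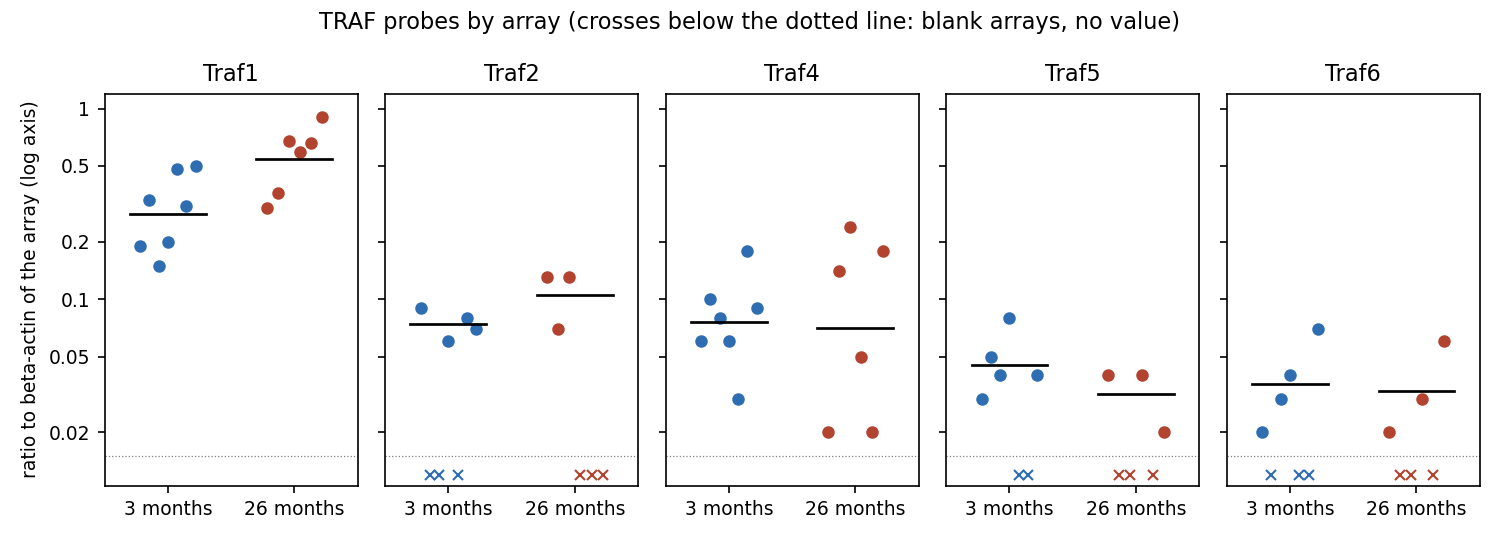
Each panel plots 1 TRAF probe as the ratio to beta-actin on a log axis, with 1 point per array at 3 months (blue, 7 arrays) and 26 months (red, 6 arrays); black lines are means of log2 ratios, and crosses under the dotted line count arrays with no value. Traf1 spans 0.15 to 0.50 at 3 months and 0.30 to 0.90 at 26 months, while Traf4 at 26 months spreads from 0.02 to 0.24.

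Traf2, the RING adaptor that recruits Birc2 and Birc3 to TNF receptors and is the usual partner of Traf1, was measured on 3 of 6 arrays at 26 months and 4 of 7 at 3 months. Its ratios were 0.13, 0.07 and 0.13 in aged replicates 1, 2 and 3, and 0.09, 0.06, 0.08 and 0.07 in young replicates 1, 4, 6 and 7. The lowest aged value lay inside the young range and the other 2 lay above it. The log2 difference was 0.51 (95% interval -0.87 to 1.89, adjusted p = 0.89 by limma). With centring on the 14 probes it was -0.03, so the direction did not hold.

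Traf5, which acts beside Traf2 at receptors of lymphocyte costimulation, was measured on 3 and 5 arrays. The aged ratios were 0.04, 0.04 and 0.02 in replicates 1, 4 and 6. The young ratios were 0.03, 0.05, 0.04, 0.08 and 0.04 in replicates 1, 2, 3, 4 and 7. The groups overlapped from 0.03 to 0.04, and the log2 difference was -0.51 (95% interval -1.85 to 0.82, adjusted p = 0.89 by limma). The difference was negative under each of the 4 other scalings tried, from -0.17 to -1.42.

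Traf6, the adaptor of interleukin-1 and Toll-like receptors as well as of Cd40, was measured on 3 and 4 arrays. Its aged ratios were 0.02, 0.03 and 0.06 in replicates 1, 4 and 6, and its young ratios were 0.02, 0.03, 0.04 and 0.07 in replicates 1, 3, 4 and 7. Nearly the whole range was shared, and the log2 difference was -0.12 (95% interval -1.62 to 1.37, adjusted p = 0.98 by limma). It turned positive with median centring (0.33) and with quantile normalization (0.42).

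Traf4, a more divergent family member known from epithelial and developing tissue, had a value on every array. At 26 months its ratios were 0.02, 0.14, 0.24, 0.05, 0.02 and 0.18 in replicates 1 to 6. At 3 months they were 0.06, 0.10, 0.08, 0.06, 0.03, 0.18 and 0.09 in replicates 1 to 7. The aged arrays reached both lower and higher than the young ones, with a 12-fold range and an SD of 1.60 on the log2 scale, against a 6-fold range and an SD of 0.80. That difference in spread was not tested. The log2 difference of the means was -0.10 (95% interval -1.37 to 1.16, adjusted p = 0.98 by limma). The sign rested on single arrays. Without aged replicate 1 or without aged replicate 5, the 2 arrays at 0.02, the difference was 0.26 in both cases. It was 0.11 without young replicate 6, at 0.18, and -0.46 without aged replicate 3, at 0.24.

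**Figure D2:**
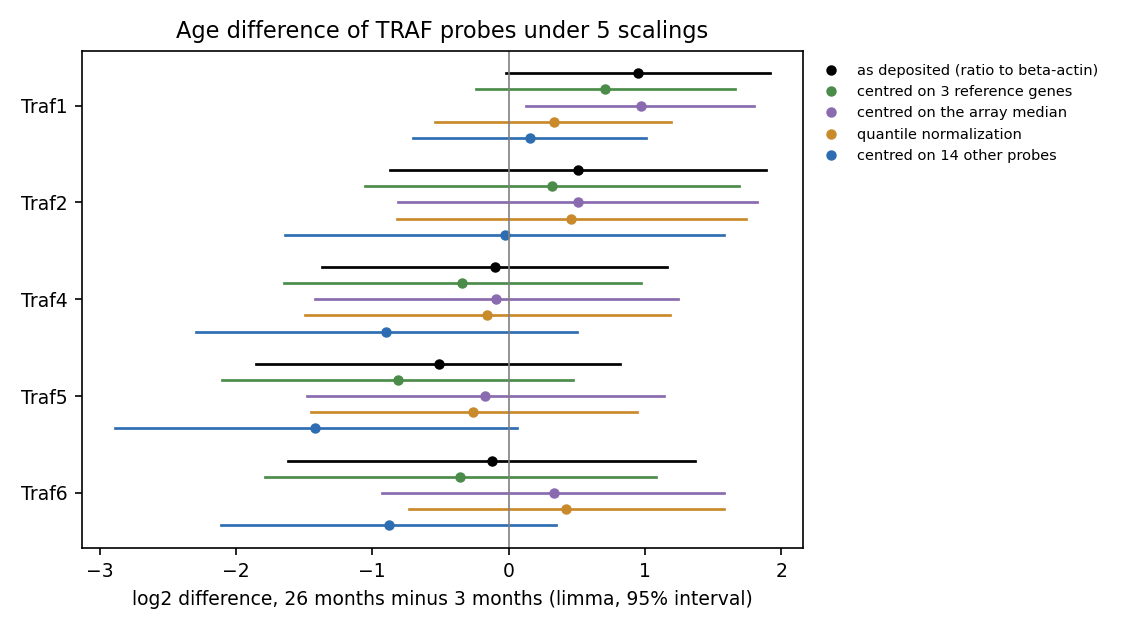
Points are log2 differences of each TRAF probe, 26 months minus 3 months, and lines are limma's 95% intervals, for the ratios as deposited and 4 other scalings of the same 13 arrays. Only the interval of Traf1 with median centring (0.13 to 1.80) leaves out 0, before any adjustment for the number of probes, and centring on the 14 other probes brings Traf1 to 0.16.

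The ratios are rounded to steps of 0.01, which weighs on the dim probes. A deposited 0.02 may stand for 0.015 to 0.025, values 1.67-fold apart, while a deposited 0.90 may stand for 0.895 to 0.905. If every aged value were moved to the end of its rounding interval nearest one direction and every young value to the other, the Traf1 difference would lie between 0.91 and 0.99. Under the same limits Traf2 would lie between 0.34 and 0.68 and Traf5 between -0.94 and -0.12. Traf4 would lie between -0.39 and 0.16, and Traf6 between -0.60 and 0.34, so for these 2 probes the rounding alone could set the sign.

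Detection was compared by counting blanks. Traf1 and Traf4 had a value on 13 of 13 arrays. Traf2 had one on 3 of 6 aged and 4 of 7 young arrays, and Traf6 had the same counts (Fisher's exact p = 1 for each). Traf5 had one on 3 of 6 and 5 of 7 (Fisher's exact p = 0.59, and 1 after adjustment over the 96 probes). None of the 5 differed past the threshold, and neither did any other of the 96 gene probes (0%), with 2.08% of them at an unadjusted p under 0.05. The design nearly fixed this outcome. With 6 and 7 arrays no probe could pass the adjustment on its own, even with values on all aged and no young arrays. Traf1 and Traf4, which had no blanks, could show no difference in detection. Over all TRAF cells 17 of 65 were blank (26.2%), against 426 of 1248 gene cells (34.1%).

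With detection counted only at a ratio of 0.05 or more, Traf4 was present on 4 of 6 aged and 6 of 7 young arrays (Fisher's exact p = 0.56). Traf5 was then present on 0 of 6 and 2 of 7 (Fisher's exact p = 0.46), and Traf6 on 1 of 6 and 1 of 7. The counts of Traf1 and Traf2 were the same as without this minimum.

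Blanks of Traf5 and Traf6 fell largely on the same arrays. Both were blank on 5 arrays, both were measured on 7, and on 1, young replicate 2, Traf5 alone had a value. Aged replicates 2, 3 and 5 lacked both. Traf2 followed another course: it was measured on aged replicates 2 and 3, where Traf5 and Traf6 were blank, and blank on aged replicates 4 and 6, where they were measured. All 5 probes had a value on aged replicate 1 and on young replicates 1, 4 and 7. Aged replicate 5 and young replicate 5 had values for Traf1 and Traf4 alone, although 71.9% of all gene probes were measured on the first and 54.2% on the second. Both arrays also had the lowest Traf4 ratio of their age group, 0.02 (shared with aged replicate 1) and 0.03.

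**Figure D3:**
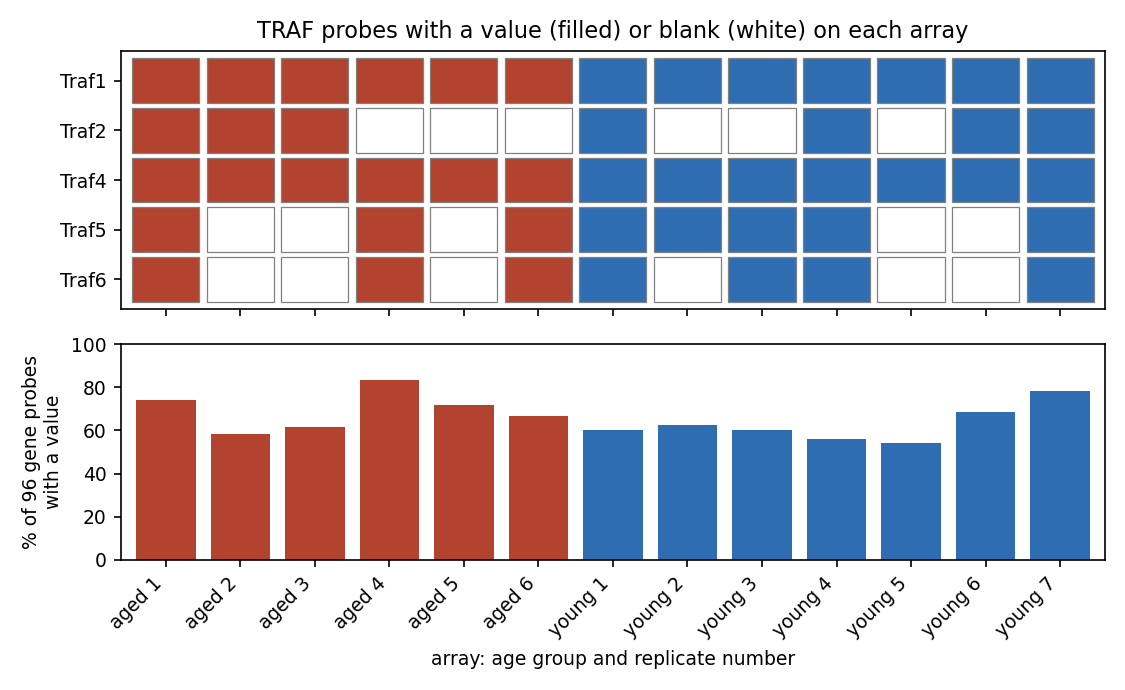
The upper grid shows for each array whether a TRAF probe had a value (filled, red at 26 months and blue at 3 months) or was blank (white); the bars below give the percent of the 96 gene probes with a value on that array. Traf5 and Traf6 are blank together on 5 arrays, and the arrays with most gene probes measured, aged replicate 4 (83.3%) and young replicate 7 (78.1%), hold 4 and 5 of the 5 TRAF probes.

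The balance of Traf1 to the other TRAFs was taken within each array as the log2 ratio of the other probe to Traf1, in which the beta-actin denominator cancels. A lower value means more Traf1 relative to the other probe. All 4 balances had a lower mean at 26 months, and none passed the adjustment over 69 probes, of which the fit called 0%. At an unadjusted p under 0.05 by limma there was 1 of 4, Traf5, against 23.2% of all probes. The 4 balances share the Traf1 values, and relative to Traf1 the mean was lower at 26 months for 62 of all 69 probes. The median of the 4 was -1.20 and that of all 69 was -0.74.

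Traf4 could be set against Traf1 on every array. Its log2 balance was -3.91, -1.36, -1.50, -3.56, -5.04 and -2.32 in aged replicates 1 to 6, and -1.66, -1.72, -0.91, -1.74, -4.00, -0.78 and -2.47 in young replicates 1 to 7. The groups overlapped: 5 of the 6 aged arrays lay within the young range, and aged replicate 5 lay below it. The difference was -1.05 (95% interval -2.29 to 0.19, adjusted p = 0.26 by limma, exact permutation p = 0.16). Leaving out aged replicate 5, the array with the lowest balance, brought it to -0.63 (adjusted p = 0.59 by limma).

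Traf5 relative to Traf1 was -2.91, -3.88 and -5.49 in aged replicates 1, 4 and 6. In young replicates 1, 2, 3, 4 and 7 it was -2.66, -2.72, -1.91, -1.32 and -3.64. Aged replicate 1 lay inside the young range and the other 2 aged arrays lay below it. The difference was -1.64 (95% interval -3.20 to -0.08, p = 0.040, adjusted p = 0.20 by limma), and the exact permutation p was 0.071.

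Traf6 relative to Traf1 was -3.91, -4.30 and -3.91 in aged replicates 1, 4 and 6, and -3.25, -2.32, -2.32 and -2.84 in young replicates 1, 3, 4 and 7. The groups did not overlap as deposited, as was so for 8.70% of the 69 probes. Rounding could undo this separation. The Traf6 ratio was 0.02 on aged replicate 1 and on young replicate 1, which may stand for 0.015 to 0.025. Within these limits the balances of these arrays can change order. The difference was -1.36 (95% interval -2.92 to 0.21, adjusted p = 0.25 by limma). The exact permutation p, 0.029, is the smallest that 3 against 4 of these values can give, and its adjusted p was 0.28. It rests on 7 arrays and on Traf6 ratios of 0.02 to 0.07. With the Traf6 blanks set to 0.01 the difference was -1.14 (adjusted p = 0.51 by limma).

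Traf2 relative to Traf1 was -1.21, -2.36 and -2.39 in aged replicates 1, 2 and 3, and -1.08, -1.74, -1.95 and -2.84 in young replicates 1, 4, 6 and 7. The 3 aged values lay within the young range. The difference was -0.08 (95% interval -1.67 to 1.51, adjusted p = 0.94 by limma). Without young replicates 1 and 2 it was 0.19.

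**Figure D4:**
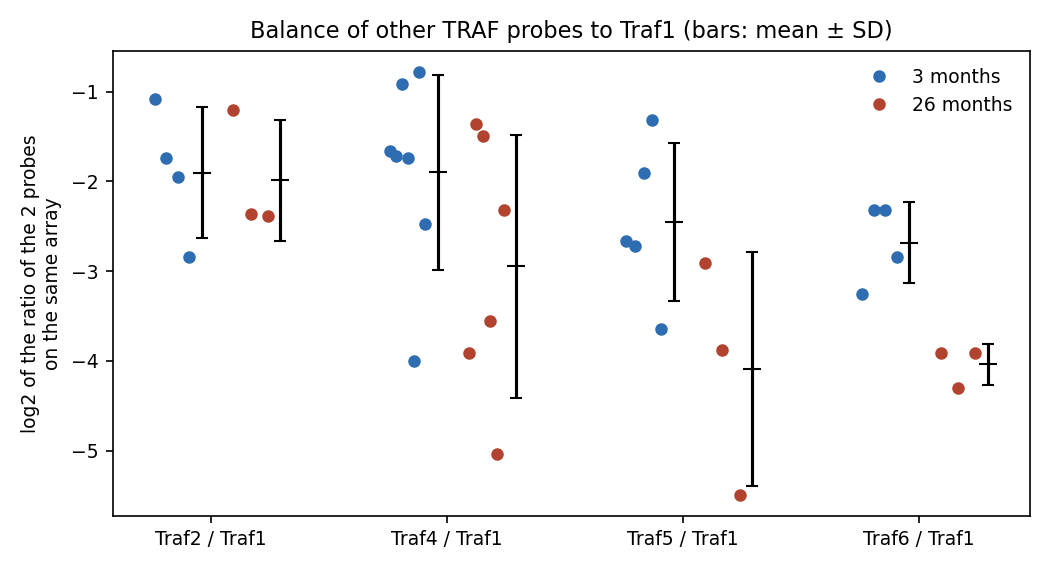
Points are log2 ratios of each other TRAF probe to Traf1 on the same array, at 3 months (blue) and 26 months (red), for arrays where both probes had a value; bars are the mean ± SD. The Traf6 groups lie apart as deposited (-3.25 to -2.32 against -4.30 to -3.91), a gap that rounding of the ratios could close. The groups of Traf2, Traf4 and Traf5 overlap.

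Of 56 genes listed as ligands, receptors and partners of TRAF signalling, 28 were among the named probes and 22 were tested. What the 9 gene probes without a symbol measure is not known here. Of the 22 tested, 1 rose and 0 fell in the age comparison. By sign 12 were higher and 10 lower, with a median log2 difference of 0.03. Over all 70 probes the same fit called 1.43%, which is the same gene, with 40 higher, 30 lower and a median of 0.06. The gene that rose was Tnf, the ligand whose receptors recruit Traf2, with a log2 difference of 2.06 (adjusted p = 0.031 by limma). The Tnf difference stayed positive, but its call by limma was not stable. The adjusted p by limma was 0.076 with centring on the reference genes and 0.32 with centring on the 14 probes. By the exact permutation test the adjusted p was 0.076. Its unadjusted p, 0.0022, is the smallest that 6 aged against 6 young values can give, so that test could not have gone lower for Tnf. Leaving out 1 array kept the difference at 1.78 to 2.30 and ended the call for 8 of the 13 arrays (aged 1, 2, 3, 4 and 6, young 3, 5 and 6). Tnf belongs to 9 tested ligands. The ligand of next smallest p was Lta, lymphotoxin alpha, which signals through the same receptors (log2 difference 1.15, adjusted p = 0.47 by limma).

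Among the 6 tested receptors that bind TRAFs directly, 3 were higher and 3 lower, and none passed. Cd27, a receptor of lymphocytes that binds Traf2 and Traf5, had a mean ratio of 0.054 ± 0.0219 on 5 aged arrays and 0.150 ± 0.080 on 3 young arrays (SD), with an adjusted p of 0.64 by limma. Tnfrsf8, a receptor of activated lymphocytes, had 0.030 ± 0.010 on 3 aged and 0.055 ± 0.0238 on 4 young arrays (adjusted p = 0.86 by limma). Tnfrsf25, which reaches TRAFs through the adaptor Tradd, had a log2 difference of 0.61 (adjusted p = 0.86 by limma). Fadd, the death-domain adaptor that joins receptors to Casp8, was the 1 bridging adaptor tested and had -0.66 (adjusted p = 0.86 by limma).

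Of the 5 tested TRAF-associated proteins, 3 were higher and 2 lower, with a median log2 difference of 0.02. Birc3, a ubiquitin ligase held by Traf1 and Traf2, had a mean ratio of 0.040 ± 0.0283 on 4 aged arrays and 0.0933 ± 0.0737 on 6 young arrays (SD; log2 difference -1.01, adjusted p = 0.72 by limma). Cflar, an inhibitor of Casp8 at death receptors, had means of 0.045 ± 0.0238 (4 aged arrays) and 0.0833 ± 0.0208 (3 young arrays), with a log2 difference of -0.98 (adjusted p = 0.72 by limma). Tank, a TRAF-binding regulator of NF-kappaB named here after its values were seen, had means of 0.0925 ± 0.0946 (4 aged arrays) and 0.0683 ± 0.0286 (6 young arrays), with a log2 difference of 0.02 (adjusted p = 0.99 by limma). Of the 11 kinases and NF-kappaB genes listed below the TRAFs, 0 were among the named probes.

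The probes whose log2 ratios followed Traf1 most closely over the arrays were sought among 36 probes with at least 10 shared arrays. Casp2, a caspase (Pearson r = 0.802), and Tnfrsf21, a death receptor (r = 0.778), led over 13 arrays. Bik, a pro-apoptotic BH3-only protein (r = 0.723), and the unnamed probe 78 (r = 0.645) came next over 13 arrays, and Mcl1, an anti-apoptotic Bcl-2 member (r = 0.636), over 11. The median r of the 36 was 0.369. All probes of an array share its beta-actin denominator and its overall level, which by itself moves them together, so the values are given as a description.

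With the mean of the probes measured on all arrays, other than the 2 compared, subtracted from both, the median r was -0.0237. Subtracting the same values from 2 probes can by itself move them together, so these r are also given as a description. Tnfrsf21 then came first (r = 0.802), followed by Tnf (r = 0.579, 12 arrays), Casp8 (r = 0.487), Casp2 (r = 0.464) and Traf4 (r = 0.431). Without that step the r of Traf4 with Traf1 was 0.123. Bik, probe 78 and Mcl1 had 0.0945, -0.0129 and -0.206 once the level was taken out. Tnfrsf21 and Casp2 were thus in both groups of 5. The Tnfrsf21 ratios had a median of 1.39 (0.97 to 1.60) at 26 months and 0.75 (0.41 to 1.38) at 3 months, a log2 difference of 0.78 (adjusted p = 0.64 by limma). The balance of Tnfrsf21 to Traf1 differed by -0.17 between the ages (95% interval -1.27 to 0.92).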

How the data were processed

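The authors deposited 1 table of linear ratios to beta-actin for 100 probes, rounded to 2 decimals. On 13 of 13 arrays the 2 Actb spots averaged 1, which identifies the denominator. The scanner, the background correction and why cells are blank are not stated in the labels or the file. The platform annotation named 91 probes. All 5 TRAF symbols are rat symbols, but 0 of their gene IDs and 0 of their accessions occur in the rat gene table (assembly GRCr8), so the organism of the probe sequences is not settled, and no coordinates are given.

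Groups came from the descriptions and replicate numbers from the titles. Log2 ratios, with no pseudocount and blanks left missing, were fitted in R 4.3.3 with lmFit and eBayes of limma 3.58.1 (two-sided tests, with age as the only factor) for the 70 gene probes with at least 3 values per group, and adjusted by Benjamini-Hochberg. The balance fit subtracted Traf1 on each array. Fisher's exact test compared detection over 96 probes. On 50 simulated sets of the age comparison over 70 probes, the fit recovered 51.1% of 4-fold and 9.14% of 2-fold changes. Each set changed 14 probes and drew every probe independently, without a level shared by the probes of an array. The number of arrays limits the precision.

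Named were all TRAF probes, partner genes past the threshold, the 2 of smallest p in each partner class, and the 5 probes most like Traf1. Members and lists were chosen with earlier results of these data known. Alternatives covered scaling, pseudocount, blanks, filter, test, replicate block and arrays left out.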

Additional observations from a re-analysis of the deposited data

How the results depend on the processing

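No tested TRAF probe passed the threshold in the age, balance or detection comparison under any of the 24, 19 and 15 alternatives run. Traf2, Traf5 and Traf6 were tested in 20 of the 24 age alternatives and in 15 of the 19 balance alternatives. The detection test could not call a probe on its own. In simulation the age fit had little power for changes as small as 2-fold. The power of the balance and detection tests was not simulated. The Traf1 difference was positive throughout, 0.80 to 1.12 with 1 array left out. The median difference of all probes was 0.06 as deposited, -0.19, -0.68 and 0.17 with centring on the reference genes, the 14 probes and the median.

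Directions turned for Traf2 with centring on the 14 probes (-0.03), for Traf6 with median centring (0.33) and quantile normalization (0.42), for Traf4 with a pseudocount of 0.02 (0.02) and on linear ratios (0.023), for the Traf2 balance without young replicates 1 and 2 (0.19), and for Traf6 detection at a minimum of 0.05 (2.38 percentage points). The cause was not tested. With 1 array left out, Traf4 ran from -0.46 to 0.26, Traf6 from -0.41 to 0.19 and the Traf2 balance from -0.40 to 0.19. Detection of Traf2 and of Traf6 each ran from -17.1 to 2.86 percentage points. Traf6 and the Traf2 balance were fitted in 10 of the 13 cases. Leaving out an aged array that had a value left fewer than 3 values, so their ranges do not show the influence of those arrays. The 25th percentile filter left out Traf5 and Traf6.

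With the replicate number as a replicate block over 6 pairs, Traf1 had a difference of 1.09 (adjusted p = 0.13 by limma), and 0 probes were called over 58, against 1 (Tnf) over 70; Tnf then had an adjusted p of 0.055, and 0.13 with blanks at 0.01. Same-numbered arrays deviated together (correlation over 0.1) in 3 of 6 pairs. For 3 of the 6 aged arrays the best-matching young array was the same-numbered one. Whether the numbers pair the arrays is not settled. The labels state no pairing, so the main fit does not use the numbers. Traf2 had 1 complete pair, too few for this fit.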
